A study of Mus musculus with 54 samples.

Results

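Dpp10, Mgat4c, Car4, Gpr165, Grm7, Map2k6, Gch1 and Tmem171 are 8 of the 16772 genes measured in mouse prostate tumours of the genotypes DKO, DKO_EE, DKO_EP and TKO. They encode membrane proteins and enzymes, not transcription factors. They were selected from the measured values themselves: in tumours collected at endstage, each was lower in DKO_EE than in DKO, both in intact mice and in mice castrated at 12 weeks of age. Differences between these groups are therefore descriptions of how the members were chosen, and no test is attached to them.

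The RNA of 54 bulk libraries from 48 animals in 11 groups was compared. DKO_EE and DKO_EP were taken as DKO mice that also carry deletions of Ezh2. Ezh2 is the gene of the catalytic subunit of the Polycomb repressive complex that methylates histone H3 at lysine 27. The labels do not say what EE and EP stand for or how the 2 deletions differ. Nor do they say which alleles make up DKO and TKO, or what drives recombination. Intact mice at 12 weeks gave 4 DKO, 4 DKO_EE and 4 DKO_EP tumours. Intact mice at endstage gave 3 DKO tumours (35 to 46 weeks of age), 12 DKO_EE libraries from 8 animals (28 to 42 weeks) and 5 DKO_EP libraries from 3 animals (39 to 52 weeks). Mice castrated at 12 weeks gave 4 DKO (39 to 99 weeks), 5 DKO_EE (35 to 59 weeks) and 5 DKO_EP (34 to 37 weeks) endstage tumours. Castrated TKO mice received vehicle (4 animals, 15 to 19 weeks) or the EZH2 inhibitor CPI1688 (4 animals, 18 to 19 weeks). Levels are given as log2(normalized count + 1), on which 0 means that no read was counted, and libraries held between 3687048 and 9741808 reads. Where an animal gave 2 pieces, their mean is its value.

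DPP10 is a single-pass membrane protein related to dipeptidyl peptidases that has no peptidase activity and serves as an auxiliary subunit of Kv4 potassium channels, and GRM7 is a presynaptic metabotropic glutamate receptor that couples to inhibitory G proteins. CAR4 is a carbonic anhydrase anchored to the cell surface, MGAT4C belongs to the family of Golgi enzymes that branch N-glycans, MAP2K6 is the kinase that phosphorylates and activates p38, and GCH1 catalyses the first and rate-limiting step in the synthesis of tetrahydrobiopterin, the cofactor of the aromatic amino acid hydroxylases that make serotonin and catecholamines. Neuroendocrine prostate tumours are known for gaining genes of secretory and neuron-like cells while losing those of the prostate epithelium.

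Before the members, the libraries themselves were checked. Ezh2 ranged from 7.33 to 7.79 in DKO_EE and from 8.19 to 8.69 in DKO at 12 weeks, and from 7.41 to 8.76 in DKO_EE and from 9.47 to 9.88 in DKO at intact endstage, without overlap in either setting. At castrated endstage the Ezh2 ranges overlapped (DKO_EE from 8.02 to 9.19, DKO from 8.43 to 9.71), and in DKO_EP Ezh2 lay at 7.76 to 8.57, 9.30 to 9.51 and 8.58 to 9.38 in the 3 settings. A count over the whole gene does not show the deleted part. The mean of 12 neuroendocrine markers lay between 9.69 and 10.68 in every endstage DKO, DKO_EE and DKO_EP tumour but one: castrated DKO animal 2, collected at 99 weeks, had 2.57. Pbsn, a secretory gene of the normal prostate, was at 0 in all of these endstage animals. One vehicle-treated TKO animal had a neuroendocrine mean of 5.50, against 9.63 to 10.80 in the other 3. Lars2 took over 10% of the normalized total in 5 of 12 intact endstage DKO_EE libraries and in 5 of 5 of DKO_EP, and at most 0.026% in DKO. The endstage differences, the TKO comparison and the within-group correlations are also given without them.

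RefSeq start-site windows on GRCm38.p6, each of 300 bases from 250 before to 50 after the start, were found for 7 of the 8 members, 13 windows in all. The windows of the 4 members with a single start are shown. CG pairs, the sites that can be methylated and that mark CpG-rich promoters, are in capitals. The Dpp10 window (chr1:124045510-124045809, minus strand) held 21 CG pairs, Gch1 (chr14:47189364-47189663, minus strand) held 20, Car4 (chr11:84957504-84957803, plus strand) held 15 and Gpr165 (chrX:96713218-96713517, plus strand) held 8.
Dpp10: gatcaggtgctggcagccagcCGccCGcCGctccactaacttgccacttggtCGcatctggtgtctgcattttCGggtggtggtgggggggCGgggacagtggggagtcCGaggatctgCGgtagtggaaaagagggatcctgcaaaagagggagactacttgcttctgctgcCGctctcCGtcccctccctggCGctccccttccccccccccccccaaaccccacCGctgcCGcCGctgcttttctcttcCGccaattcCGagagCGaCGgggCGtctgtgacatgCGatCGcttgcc
Gch1: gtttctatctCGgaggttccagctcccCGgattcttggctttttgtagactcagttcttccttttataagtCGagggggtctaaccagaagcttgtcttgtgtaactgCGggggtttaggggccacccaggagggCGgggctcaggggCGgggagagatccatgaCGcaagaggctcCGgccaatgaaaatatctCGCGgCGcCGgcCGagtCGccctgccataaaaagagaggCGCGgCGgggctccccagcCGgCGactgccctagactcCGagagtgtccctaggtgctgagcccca
Car4: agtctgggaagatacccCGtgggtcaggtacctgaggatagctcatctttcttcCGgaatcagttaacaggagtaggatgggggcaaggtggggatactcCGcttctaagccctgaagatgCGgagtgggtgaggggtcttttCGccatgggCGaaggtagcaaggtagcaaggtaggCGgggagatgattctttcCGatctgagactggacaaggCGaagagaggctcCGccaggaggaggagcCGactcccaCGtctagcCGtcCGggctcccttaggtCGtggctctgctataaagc
Gpr165: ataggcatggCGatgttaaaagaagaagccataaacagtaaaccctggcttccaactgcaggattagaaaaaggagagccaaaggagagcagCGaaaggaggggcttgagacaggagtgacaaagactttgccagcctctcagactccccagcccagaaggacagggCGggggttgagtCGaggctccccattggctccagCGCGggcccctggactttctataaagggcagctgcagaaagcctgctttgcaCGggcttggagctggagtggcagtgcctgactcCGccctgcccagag

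The median over all 32851 RefSeq windows was 7 CG pairs, so the Dpp10 window had more than 75.2% of them and the Gpr165 window more than 51.4%. The other members' windows ranged from 1 CG pair at the most upstream Mgat4c start (chr10:101681237-101681536) to 15 at a Grm7 start (chr6:110645348-110645647). Both strands were searched for the homeobox core TAATTA, the Onecut core ATCAAT, the forkhead motif TGTTTAC and the E-box CANNTG. They were held by 1, 1, 1 and 8 of the 13 windows, and by 5.29%, 7.54%, 3.65% and 72.31% of all windows. The TAATTA matches were an overlapping pair at 1 Mgat4c start, the first at chr10:102158640-102158665 with 10 bases on either side and the motif in capitals.
Mgat4c: agatactaagTAATTAattatacaaa
The single ATCAAT match stood at a Map2k6 start, at chr11:110479149-110479174.
Map2k6: ctggttaatgATCAATgccacccctg
These are matches of letters in a window, not sites of binding.

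**Figure D1:**
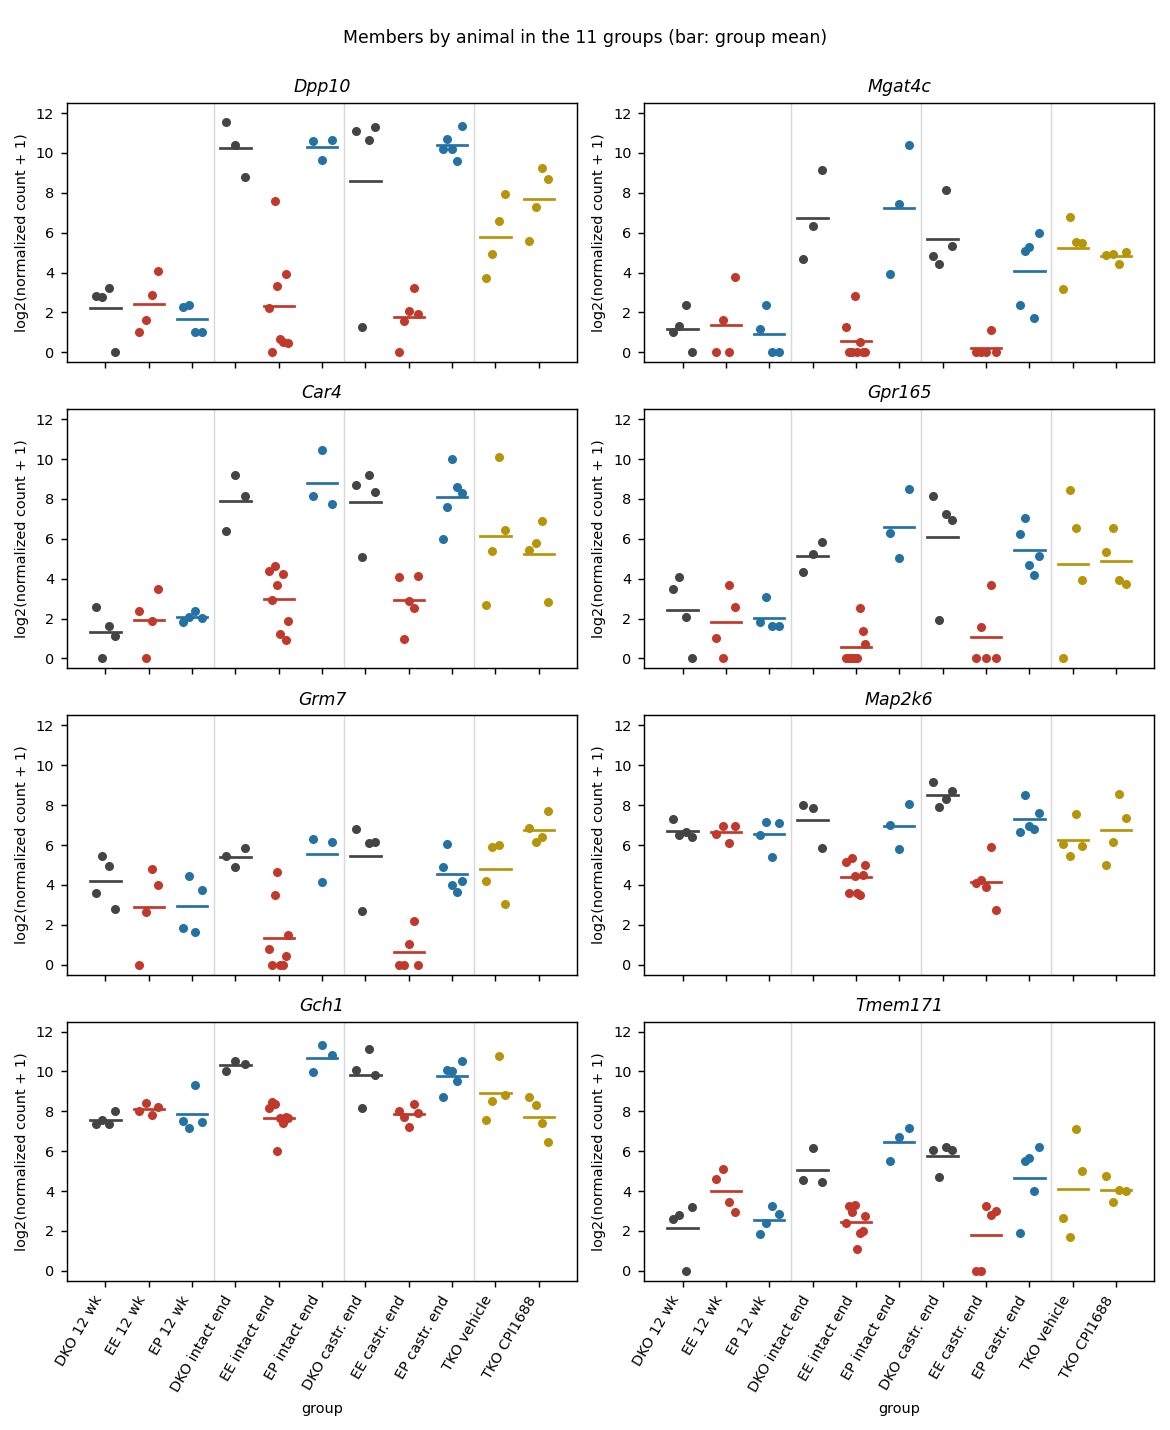
Level of each member, log2(normalized count + 1), in every animal of the 11 groups (points) with the group mean (bar); black is DKO, red DKO_EE, blue DKO_EP and yellow TKO. Red endstage points lie low in every panel, and in the Car4 panel the highest of the 13 is 4.63 while the lowest of the 15 DKO and DKO_EP endstage animals is 5.09.

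Among the membrane proteins, Dpp10 (chromosome 1, 123321471 to 124045559, minus strand, protein coding) had the widest gap between genotypes. Its log2 level was 11.54, 10.41 and 8.81 in the 3 intact endstage DKO animals. The 8 intact DKO_EE animals ranged from 0.00 to 7.57 with a median of 1.44. All DKO_EE values lay below all DKO values, and 1 DKO_EE animal, with 167 reads, stood well above the other 7, whose highest value was 3.95. After castration Dpp10 was at 11.08, 1.25, 10.65 and 11.32 in DKO and at 0.00, 1.59, 2.05, 3.24 and 1.92 in DKO_EE. The low DKO value belongs to animal 2, the tumour with few neuroendocrine transcripts, and the other 3 DKO animals lay above all DKO_EE animals. DKO_EP animals were at 10.59, 9.66 and 10.66 when intact and 10.22, 10.68, 10.19, 9.61 and 11.35 when castrated. The difference between group means, DKO_EE minus DKO, was -7.92 (SE 1.28) in intact and -6.82 (SE 1.63) in castrated mice.

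Grm7 (chromosome 6, 110645581 to 111567230, plus strand) encodes the glutamate receptor. Intact DKO animals had 5.45, 4.92 and 5.84, and the 8 DKO_EE animals 0.00 to 4.63 with a median of 0.62. The groups did not overlap, and 3 of the 8 DKO_EE animals had no Grm7 read. In castrated mice DKO had 6.80, 2.70, 6.10 and 6.17, and DKO_EE 0.00, 0.00, 1.03, 2.21 and 0.00. DKO animal 2 was again the lowest of its group, but it stayed above all 5 DKO_EE animals. DKO_EP lay at 6.30, 4.15 and 6.14 (intact) and 4.91, 6.07, 4.01, 3.64 and 4.19 (castrated). Grm7 was already detected at 12 weeks in all 4 DKO animals, at 2.77 to 5.44.

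Gpr165 (chromosome X, 96713441 to 96719388, plus strand) encodes an orphan G-protein-coupled receptor. Intact DKO animals had 4.36, 5.23 and 5.84. The DKO_EE animals ranged from 0.00 to 2.51, and 5 of the 8 had no read. In castrated mice the DKO values were 8.17, 1.91, 7.25 and 6.95, and those of DKO_EE were 0.00, 1.59, 0.00, 3.71 and 0.00. The groups were apart in intact mice and overlapped in castrated mice through DKO animal 2 and the DKO_EE animal at 3.71, which had 10 reads. DKO_EP animals had 6.30, 5.06 and 8.49 when intact and 6.24, 7.04, 4.67, 4.19 and 5.15 when castrated.

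Car4 (chromosome 11, 84957786 to 84966044, plus strand) was the only member for which no endstage DKO or DKO_EP animal came down to the DKO_EE range. Its levels were 6.39, 9.21 and 8.13 in intact DKO and 0.93 to 4.63, with a median of 3.32, in intact DKO_EE. Castrated DKO animals had 8.68, 5.09, 9.22 and 8.37, and castrated DKO_EE animals 4.10, 1.0, 2.86, 2.54 and 4.15. The highest of the 13 DKO_EE animals stood at 4.63 and the lowest of the 15 others at 5.09, which was DKO animal 2. DKO_EP had 8.16, 10.46 and 7.76 in intact and 5.98, 7.59, 9.99, 8.61 and 8.29 in castrated mice.

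Tmem171 (chromosome 13, 98686235 to 98694834, minus strand), a multi-pass membrane protein, had the smallest intact difference, -2.59 (SE 0.56). Intact DKO animals had 4.54, 6.16 and 4.43 and DKO_EE animals 1.08 to 3.31 with a median of 2.58. In castrated mice DKO lay at 6.05, 4.69, 6.19 and 6.05 and DKO_EE at 0.00, 0.00, 3.23, 2.81 and 3.0. Neither pair of groups overlapped. DKO_EP had 5.50, 6.71 and 7.18 in intact mice, each above the DKO median, and 1.91, 5.53, 5.64, 3.99 and 6.20 in castrated mice, where the animal at 1.91 fell inside the DKO_EE range.

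Of the enzymes, Mgat4c (chromosome 10, 101681487 to 102391469, plus strand) had no read in most DKO_EE tumours. It was at 4.70, 6.35 and 9.13 in intact DKO, while 5 of 8 intact DKO_EE animals had no read and the highest had 2.80. In castrated mice it was at 4.84, 4.44, 8.16 and 5.31 in DKO, and at 0.00 in 4 of 5 DKO_EE animals and 1.14 in the fifth. No single DKO_EE endstage library held more than 2 Mgat4c reads, and 13 of the 17 held none. DKO and DKO_EE did not overlap in either setting. DKO_EP was the most variable group, with 3.91, 7.46 and 10.41 in intact and 2.37, 5.09, 5.30, 1.72 and 5.96 in castrated animals, and 2 of these lay below the highest DKO_EE animal.

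Map2k6 (chromosome 11, 110399122 to 110525522, plus strand) was expressed at 12 weeks as well as at endstage. Intact endstage DKO animals had 8.02, 7.84 and 5.84, and DKO_EE animals 3.48 to 5.34 with a median of 4.47. In castrated animals the values were 9.14, 7.89, 8.32 and 8.69 in DKO and 4.10, 4.25, 3.87, 5.91 and 2.72 in DKO_EE. The groups did not overlap in either setting, and castrated DKO animal 2, the lowest of its group, was above all DKO_EE animals. All 12 animals at 12 weeks lay between 5.40 and 7.31, and 12 of the 13 endstage DKO_EE animals were below that whole range. DKO_EP lay at 7.0, 5.80 and 8.08 (intact) and 6.65, 8.52, 6.97, 6.78 and 7.62 (castrated).

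Gch1 (chromosome 14, 47153895 to 47189413, minus strand) stayed expressed in every DKO_EE animal. Intact DKO animals had 10.03, 10.52 and 10.39, and DKO_EE animals 5.99 to 8.49 with a median of 7.71. Castrated DKO animals had 10.07, 8.17, 11.13 and 9.84, and DKO_EE animals 8.01, 7.72, 7.23, 8.39 and 7.92. Only castrated DKO animal 2, at 8.17, reached into the DKO_EE values. At 12 weeks the gene ranged from 7.14 to 9.30, which covers 12 of the 13 endstage DKO_EE animals. DKO_EP had 9.97, 11.31 and 10.82 when intact and 8.73, 10.06, 10.01, 9.50 and 10.54 when castrated.

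Over the 8 members the DKO_EE minus DKO difference ran from -7.92 (Dpp10) to -2.59 (Tmem171) in intact mice, with a median of -4.31, and from -6.82 (Dpp10) to -1.95 (Gch1) in castrated mice, with a median of -4.85. All DKO_EE animals lay below all DKO animals for 8 of 8 members in intact mice, where the share of all genes with that order was 2.59%, and for 5 of 8 in castrated mice, where it was 5.23%. The order held in both settings for 0.28% of all genes. The choice of the members used these contrasts. The smallest of the differences were those of Tmem171 in intact and Gch1 in castrated mice. Without castrated DKO animal 2 the castrated differences widened, to -9.26 for Dpp10, -6.40 for Gpr165 and -2.49 for Gch1. Without the libraries over 10% Lars2 the intact differences were between -7.64 (Dpp10) and -2.20 (Gch1).

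**Figure D2:**
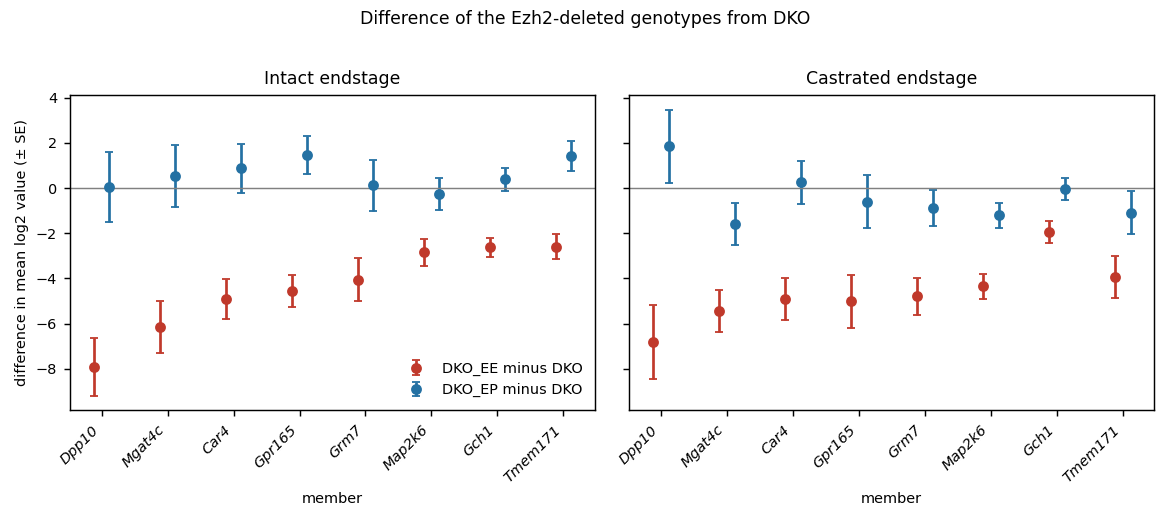
Difference of mean log2 levels from DKO for each member at intact (left) and castrated (right) endstage; points are DKO_EE minus DKO (red) and DKO_EP minus DKO (blue), bars ± SE from the fit. The red points run from -7.92 to -1.95, and the blue points from -1.60 (Mgat4c, castrated) to 1.84 (Dpp10, castrated), which is -0.61 without castrated DKO animal 2.

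DKO_EP minus DKO differences share the DKO animals with the selection and are listed beside the others without a test. In intact mice they ranged from -0.28 (Map2k6) to 1.47 (Gpr165), with a median of 0.46. In castrated mice they ranged from -1.60 (Mgat4c) to 1.84 (Dpp10), with a median of -0.75, and 6 of the 8 were negative. These castrated values rest in part on DKO animal 2. Without it, an alternative chosen after seeing the data, all 8 were negative, from -2.02 (Mgat4c) to -0.58 (Gch1), with Dpp10 at -0.61, Car4 at -0.66 and Gpr165 at -2.0.

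Bulk RNA cannot tell fewer cells of a type from less RNA per cell, so marker lists were read in the same tumours. The mean of the 12 neuroendocrine markers was 9.90 to 9.95 in intact DKO and 9.88 to 10.45 in intact DKO_EE. In castrated mice it was 2.57 (animal 2) to 10.23 in DKO, with a median of 9.98, and 9.69 to 10.63 in DKO_EE. By limma, 1 of the 12 was called between intact DKO_EE and DKO, Snap25 at -1.13 (SE 0.16, adjusted p = 0.00476), and 0 of 12 between the castrated groups. Fibroblast markers moved with the castrated comparison: 5 of 8 were lower in DKO_EE (Lum, Dcn, Col3a1, Thy1 and Fbln1), with a summed normalized count of 5909 to 14214 in DKO_EE and 18141 to 41628 in DKO. In the intact comparison 0 of 8 fibroblast markers were called, and their sum was 1991 to 40235 in DKO_EE and 6207 to 47179 in DKO. Macrophage markers moved with the intact comparison, where Adgre1 and Lyz2 were the 2 of 8 called, both lower, with sums of 1556 to 7634 in DKO_EE and 7018 to 10696 in DKO, and 0 of 8 in the castrated one. Of the basal list Dst was called lower in castrated DKO_EE, and 0 endothelial and 0 skeletal muscle markers were called in either setting. The basal sum was 6724 to 70354 in castrated DKO, with a median of 7422, and 2660 to 3928 in castrated DKO_EE. Of the luminal list 0 of 7 tested were called in the intact comparison and 1 of 7, higher in DKO_EE, in the castrated one. Among all genes 1.66% were called in the intact and 7.72% in the castrated comparison. The part of neuroendocrine cells, basal and luminal cells, fibroblasts and macrophages in the member differences was not tested.

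**Figure D3:**
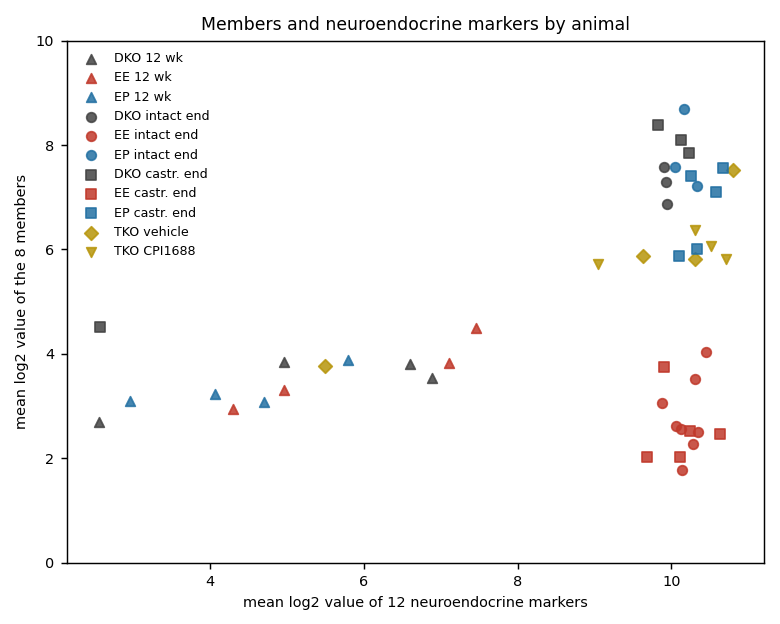
Mean log2 level of the 8 members (vertical) against the mean of 12 neuroendocrine markers (horizontal), 1 symbol per animal. The 13 endstage DKO_EE animals sit at neuroendocrine means of 9.69 to 10.63 and member means of 1.78 to 4.04, below the other endstage tumours of like neuroendocrine level.

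The 12-week animals took no part in choosing the members, and there the genotypes were compared with a test. Between DKO_EE and DKO 0 of the 8 members were called by limma with Benjamini-Hochberg adjustment over all genes (adjusted p from 0.975 to 0.997), and 0% of all 16626 genes were called. At an unadjusted p under 0.05 the fit gave 1 member and 796 genes, and limma-voom on the recovered reads also called 0 genes. The member was Tmem171, at 2.59, 2.78, 0.00 and 3.19 in DKO and 4.59, 5.09, 3.45 and 2.95 in DKO_EE. Its difference of 1.88 (SE 0.72, p = 0.0231, adjusted p = 0.975) pointed to a higher level in DKO_EE, and the ranges overlapped.

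Dpp10, Mgat4c, Car4 and Gpr165 were low at this age in all 3 genotypes. Dpp10 was at 2.81, 2.78, 3.24 and 0.00 in DKO and at 1.03, 1.64, 2.87 and 4.08 in DKO_EE. Car4 was at 2.59, 0.00, 1.64 and 1.11 in DKO and at 2.38, 0.00, 1.89 and 3.47 in DKO_EE. At such levels, of a few reads per library, a loss like that at endstage could not have been seen for these genes. Grm7, Map2k6 and Gch1 had more reads. Grm7 was at 3.59, 5.44, 4.94 and 2.77 in DKO and 0.00, 2.66, 4.81 and 4.01 in DKO_EE, a difference of -1.32 (SE 1.04) that was negative under all 14 alternatives and passed under none. Map2k6 was at 7.31, 6.52, 6.64 and 6.39 in DKO and 6.54, 6.96, 6.10 and 6.93 in DKO_EE, a difference of -0.08 (SE 0.38). Gch1 was at 7.38, 7.54, 7.34 and 8.02 in DKO and 8.03, 8.44, 7.84 and 8.20 in DKO_EE, a difference of 0.56 (SE 0.39). The intact endstage differences of these 3 genes were -4.05, -2.85 and -2.63, and whether the difference changed with age was not tested because the endstage animals chose the members.

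DKO_EP and DKO at 12 weeks gave the same count: limma called 0 of 8 members and 0% of all genes, with 0 members and 449 genes at an unadjusted p under 0.05 and 0 genes by limma-voom. The member differences ran from -1.27 (Grm7) to 0.74 (Car4). Skeletal muscle transcripts varied at this age, with Ttn at 0.113% to 2.551% of the normalized total in DKO and at most 0.017% in DKO_EE. Without the animals over 1% Ttn, still 0 members were called in either comparison.

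DKO_EP animals also took no part in the choice, and their change from 12 weeks to endstage was tested in a fit over all 11 groups. The spread in that fit came in part from the endstage DKO and DKO_EE animals that chose the members. With the DKO_EP groups alone, limma called 7 members and 7795 genes for intact endstage, and 6 members and 9316 genes for castrated endstage. By intact endstage 7 of the 8 members had risen by limma, with 21.3% of all genes called higher, 22.9% lower and 44.2% in either direction. Dpp10 went from 2.28, 2.38, 1.04 and 1.02 at 12 weeks to 10.59, 9.66 and 10.66, a rise of 8.62 (SE 1.54, adjusted p = 3e-05). Car4 went from 1.83, 2.06, 2.39 and 2.03 to 8.16, 10.46 and 7.76, a rise of 6.71 (SE 1.20, adjusted p = 2.91e-05). Neither gene had an endstage animal within reach of the 12-week values. Mgat4c rose by 6.37 (SE 1.13, adjusted p = 2.86e-05) and Gpr165 by 4.58 (SE 1.32, adjusted p = 0.00504). Tmem171 rose by 3.89, Gch1 by 2.85 and Grm7 by 2.61, the last with an adjusted p of 0.0424. Map2k6, of the kinase that activates p38, was the member that did not pass, at 0.41 (SE 0.68, adjusted p = 0.656).

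Castrated endstage DKO_EP mice were compared with the same intact 12-week animals, as the series holds no castrated 12-week group. Stage and castration therefore changed together and cannot be told apart here. In this comparison 6 of the 8 members were called higher, with 25.7% of all genes called higher, 28.8% lower and 54.5% in either direction. The rises were 8.73 for Dpp10 (SE 1.35, adjusted p = 1.51e-06), 6.02 for Car4 (SE 1.05, adjusted p = 1.03e-05), 3.42 for Gpr165, 3.19 for Mgat4c, 2.08 for Tmem171 and 1.91 for Gch1. Grm7 (1.64, SE 0.93, adjusted p = 0.133) and Map2k6 (0.76, SE 0.60, adjusted p = 0.289) did not pass. The calls for Dpp10, Car4 and Gch1 held with each animal left out in both settings. Grm7 in intact mice lost its call without intact animal 1 or 3, or without 12-week animal 1 or 3 (adjusted p up to 0.144), and also with array weights (1.59, adjusted p = 0.0602), which left 6 of 8 members, and Gpr165 without intact animal 3 (0.0528). Tmem171 in castrated mice lost it without 12-week animal 1 or 2 or castrated animal 2, 3 or 5 (adjusted p up to 0.104). With limma-voom the castrated rises of Mgat4c (3.70, adjusted p = 0.0695) and Tmem171 (2.19, adjusted p = 0.0554) missed the threshold, which left 4 of 8 members.

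Other transcripts moved in the same comparisons. In DKO_EP 11 of 12 neuroendocrine markers rose, 1 fell and 7 of 8 basal markers fell by limma in both settings, 4 of 8 luminal, 4 of 8 fibroblast and 4 of 6 skeletal muscle markers fell, and 2 (intact) or 4 (castrated) of 8 macrophage markers fell. Of the 10 endothelial markers 1 rose in each setting and 1 fell in the castrated one. The part of this change of tissue in the members' rise was not tested. All 5 intact endstage DKO_EP libraries had Lars2 over 10% and no 12-week library did, so that feature and the stage cannot be told apart there. In castrated DKO_EP libraries Lars2 was at most 0.005%, but those mice differed from the 12-week mice in castration as well as stage. The rises there are those given above, similar in size for Dpp10 and Car4 and smaller for Mgat4c, Gpr165, Tmem171, Gch1 and Grm7.

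**Figure D4:**
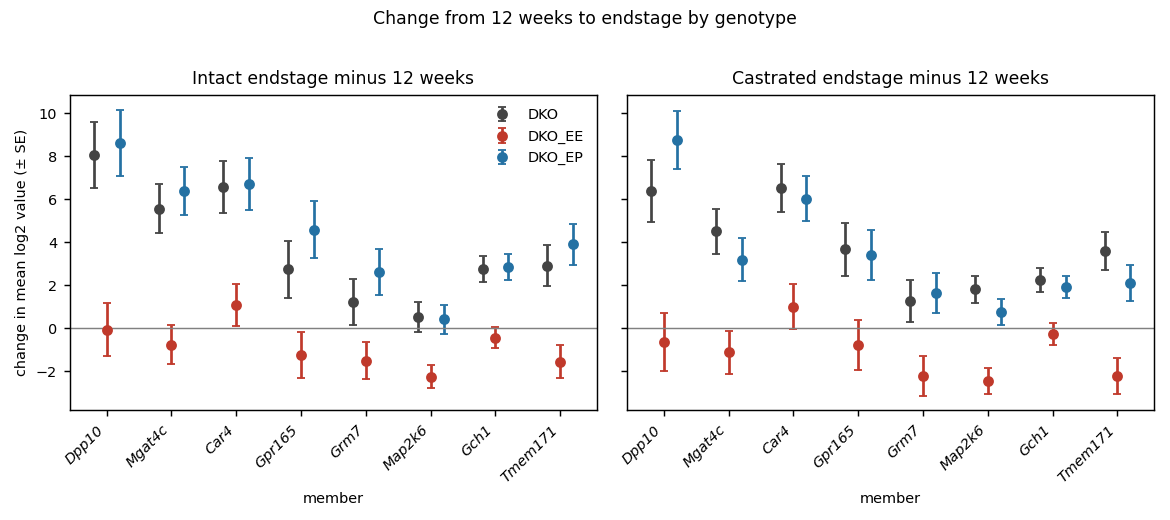
Change of mean log2 level from 12 weeks to intact (left) or castrated (right) endstage for each member in DKO (black), DKO_EE (red) and DKO_EP (blue), bars ± SE from the fit over 11 groups. The 12-week mice were intact in both panels. DKO_EP changes lie between 0.41 and 8.73, and in DKO_EE 7 of 8 changes are negative in each setting, with Car4 the exception at 1.07 and 1.0.

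The same changes in DKO and DKO_EE rest on the animals that chose the members and stand here as values. In DKO they ran from 0.52 to 8.04 (intact, median 2.82) and from 1.26 to 6.50 (castrated, median 3.63, and 4.45 with a range of 2.0 to 8.81 without animal 2). In DKO_EE they ran from -2.25 to 1.07 (intact, median -1.01) and from -2.47 to 1.0 (castrated, median -0.95).

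Between castrated and intact endstage DKO_EP animals limma called 0 of 8 members, with 4.89% of all genes called higher, 4.98% lower and 9.87% in either direction. Lars2 took 14.225% to 21.551% of the normalized total in the intact libraries and at most 0.005% in the castrated ones. Castration and that feature cannot be told apart in this comparison. At an unadjusted p under 0.05 the fit gave 1 member, Mgat4c, and 3318 genes, and limma-voom called 0 members and 1612 genes. Mgat4c differed by -3.17 (SE 1.09, p = 0.00566, adjusted p = 0.0555), with the lowest intact animal, at 3.91, inside the castrated range. Without that animal the difference was -4.85 (adjusted p = 0.00267). Over all fits that left out 1 animal it ran from -4.85 to -1.60, with adjusted p up to 0.637. Over the whole series 273 genes were lower and 149 higher in every one of 22 castrated animals than in every one of 26 intact animals, TKO included, and 0 of the 8 members were among them. Mapkapk5, a kinase downstream of p38, was one, at 3.43 to 5.48 in castrated and 7.56 to 8.56 in intact animals. Castration and any difference in how the 2 sets of libraries were made cannot be told apart for such genes.

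Castrated TKO tumours carried intermediate levels of most members. Limma called 0 of 8 members and 0% of all genes between CPI1688 and vehicle, with 1 member and 337 genes at an unadjusted p under 0.05 and 0 genes by limma-voom. That member was Grm7, at 4.21, 5.88, 5.99 and 3.03 with vehicle and 6.86, 6.14, 6.40 and 7.71 with CPI1688. The difference was 2.0 (SE 0.72, p = 0.0242, adjusted p = 1), and the 2 groups did not overlap. The share of all genes without overlap between these groups was not computed. Dpp10 was at 3.71, 4.93, 6.61 and 7.93 with vehicle and 5.58, 7.29, 9.25 and 8.71 with the inhibitor, a difference of 1.91 (SE 1.07, adjusted p = 1). Gch1 had the lowest difference, -1.18 (SE 0.74, adjusted p = 1), with 7.54, 8.51, 10.79 and 8.81 against 8.72, 8.34, 7.43 and 6.44. The ranges of Dpp10 and Gch1 overlapped between the treatments. Vehicle animal 1, which had the lowest neuroendocrine mean, had no Gpr165 read, and without it the Gpr165 difference went from 0.16 to -1.42, Dpp10 from 1.91 to 1.22, Car4 from -0.91 to -2.07, Mgat4c from -0.42 to -1.11, Tmem171 from -0.06 to -0.54, Gch1 from -1.18 to -1.64 and Grm7 from 2.0 to 1.80, with 0 members called (adjusted p from 0.911 to 0.941). The SEs of the 8 differences ran from 0.72 to 1.69.

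Ordered by mean over the 11 groups, the highest level was in a DKO or DKO_EP endstage group for 7 members and in CPI1688-treated TKO (6.77) for Grm7. A DKO_EE endstage group was the lowest for Mgat4c, Gpr165, Grm7, Map2k6 and Tmem171, and a 12-week group for Dpp10, Car4 and Gch1. These orders include the endstage DKO and DKO_EE groups that chose the members, so the selection fixed part of them. Neighbouring groups in these orders overlapped for all 10 pairs of each member, except for 1 pair of Map2k6, vehicle-treated TKO above intact endstage DKO_EE, with a gap of 1.88 between means. The share of such pairs over all genes was not computed. The widest step between neighbours was 3.39, for Dpp10, between vehicle-treated TKO and 12-week DKO_EE.

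Across the 11 group means the members rose and fell together, with Pearson correlations of 0.53 to 0.96 over the 28 pairs of members (median 0.86), part of which the selection fixed. Within groups, after subtracting each group's mean over the 48 animals, the pairs fell to between -0.07 and 0.57 (median 0.27). The within-group correlation with the neuroendocrine mean was 0.69 for Gpr165 and 0.67 for Dpp10, and 0.10 for Map2k6 and 0.16 for Tmem171. Without castrated DKO animal 2 and vehicle-treated TKO animal 1, an alternative chosen after seeing the data, these were 0.37, 0.31, -0.01 and -0.08 over 46 animals, Grm7 had the highest at 0.46, and the pairs lay between -0.29 and 0.54 (median 0.11). Points in these correlations share libraries and normalization.

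Genes whose 11 group means ran most like a member's were found among all named genes above the lowest 25% by level. Those means include the endstage DKO and DKO_EE groups that chose the members, so the selection fixed part of each correlation. Arhgap24 was closest to Dpp10 (r = 0.974, within-group r = 0.54), followed by Fam172a (0.959) and Tph1 (0.953). Car4 was closest to Tph1, tryptophan hydroxylase of serotonin synthesis (r = 0.972), then to Gad2, a glutamate decarboxylase (0.971), and Fam172a (0.969). Grm7 ran with Onecut2 (0.950), which encodes a homeobox transcription factor, Fbln7 (0.931) and the axon guidance receptor Robo2 (0.930). Gch1 ran with Map2k1 (0.967), Atp6ap2 (0.943) and Ccdc166 (0.931). For the others the leading gene was Zswim6 for Gpr165 (0.960), with Hip1 (0.955) and Gpr37l1 (0.951), Fam13c for Mgat4c (0.933), with Zswim6 (0.928) and Plekhh2 (0.926), Rcbtb2 for Tmem171 (0.929), with Fam149a (0.912) and Hip1 (0.908), and Tox3 for Map2k6 (0.926), with Minpp1 (0.924) and St3gal3 (0.906). Within groups several of these were near zero, such as Gpr165 with Zswim6 (0.00), Grm7 with Onecut2 (0.09) and Tmem171 with Rcbtb2 (0.11).

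In all, 6 intact endstage animals gave 2 pieces of the prostate, 4 of DKO_EE and 2 of DKO_EP. The absolute difference between the pieces of an animal had a median from 0.21 (Mgat4c) to 2.06 (Map2k6). For Map2k6 in DKO_EE animal 8 the pieces were at 2.90 (7 reads) and 7.11 (80 reads). The second is above the lowest intact DKO animal, at 5.84, so the separation of that gene held for animals and not for each piece. Mgat4c in DKO_EP animal 1 was at 1.64 and 6.19, with 1 and 37 reads. Gch1 differed least at its extreme, by at most 1.44.

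The members' relatives, 82 listed genes of the same families and pathways, were tested between DKO_EE and DKO because they had no part in the selection of the members. Limma called 2 higher and 1 lower of 79 in intact mice and 4 higher and 3 lower of 78 in castrated mice, against 1.12% higher and 0.541% lower of all genes in intact and 3.42% and 4.3% in castrated mice. Metabotropic glutamate receptors made up most of the higher calls. Grm5, a receptor of another group of the family than Grm7 and coupled to phospholipase C, had no read in the 3 intact DKO and 3 intact DKO_EP animals and was at 2.13 to 7.92 in the 8 intact DKO_EE animals. The median of 60.2 normalized counts is at least 21.9-fold higher than a floor of 3 reads in a DKO library (adjusted p = 0.0145). In castrated mice Grm5 had reads in 1 of 4 DKO animals, at 1.25, in 0 of 5 DKO_EP animals, and in all 5 DKO_EE animals at 7.20 to 8.64, a difference of 7.31 (SE 0.38, adjusted p = 3.03e-07). Grm8 and Grm4, which with Grm7 belong to group III, were higher in castrated DKO_EE than in castrated DKO, with Grm8 up by 4.75 (SE 0.83, adjusted p = 0.00541). The difference of Grm4 was 3.65 (SE 0.90, adjusted p = 0.0278). For Grm8 the castrated DKO animals were at 0.00 to 3.30, beside 5.13 to 6.78 in DKO_EE and 4.68 to 8.43 in DKO_EP, and in intact mice the difference was -2.34 (adjusted p = 0.329).

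Among the partners of Dpp10, Kcnd2, the Kv4.2 channel that it assists, was higher in intact DKO_EE: DKO animals had 5.99, 7.69 and 7.72 and DKO_EE animals 8.16 to 9.95, with no overlap and a difference of 1.91 (SE 0.42, adjusted p = 0.0392). In castrated mice the Kcnd2 difference was 2.91 (adjusted p = 0.104), and 0 of 7 listed channel and KChIP genes were called. Map2k1, the kinase that activates ERK, was lower in both settings, with a difference of -0.87 (SE 0.20, adjusted p = 0.0423) in intact mice and one of -0.81 (SE 0.20, adjusted p = 0.0282) in castrated mice, and with 8.72 to 9.90 in intact DKO_EE and 9.94 to 10.45 in intact DKO. Map3k5 was lower and Mapk13, the p38 delta kinase, higher in castrated DKO_EE, by -0.52 and 1.36 (adjusted p = 0.0105 and 0.0106), and Map2k3, the other main p38 activator, was at 0.08 and -0.12 in the 2 settings with adjusted p of 0.876 and 0.695. Mgat4b was lower in castrated mice, at -0.51 (adjusted p = 0.0381), while Mgat4a was at 0.00 and -0.19. No carbonic anhydrase of 13 or 14 tested, no dipeptidyl peptidase relative of 5, and no tetrahydrobiopterin gene of 16 or 15 was called.

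Over the tetrahydrobiopterin list the median difference was -0.22 in intact and -0.18 in castrated mice. Tph1, the hydroxylase that uses the cofactor made through Gch1, is in that list. It was named because its group means ran close to those of Car4 and Dpp10, and it is not typical of the list. It was at 10.50, 10.80 and 11.70 in intact DKO and ranged from 3.23 to 10.71 in intact DKO_EE, a difference of -4.04 (SE 1.32, adjusted p = 0.139), and in castrated mice the difference was -5.34 (SE 1.78, adjusted p = 0.0846). Ddc, the next enzyme of serotonin synthesis, was at 12.06 to 12.53 in intact DKO and 11.28 to 12.78 in intact DKO_EE. The 3 intact calls did not pass without the libraries over 10% Lars2 (Kcnd2 1.97, adjusted p = 0.0815; Grm5 5.99, adjusted p = 0.0548; Map2k1 -0.93, adjusted p = 0.0833). Leaving out 1 animal gave 0 to 3 intact calls, with 0 without DKO animal 1 or 3 and 1 without DKO animal 2 or DKO_EE animal 1, 5 or 6. In castrated mice it gave 4 to 8, with 4 without DKO_EE animal 5. Across the 9 castrated fits that leave out 1 animal, Grm5, Grm8, Map3k5 and Mapk13 passed in all 9, Grm4 in 4 (adjusted p up to 0.063), Map2k1 in 3 (up to 0.0729) and Mgat4b in 2 (up to 0.084). Grm4 was lost without DKO animal 2 or 3 or DKO_EE animal 1, 3 or 5, Map2k1 without DKO animal 1, 3 or 4 or DKO_EE animal 2, 3 or 5, and Mgat4b without any animal but DKO animal 3 or DKO_EE animal 3.

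**Figure D5:**
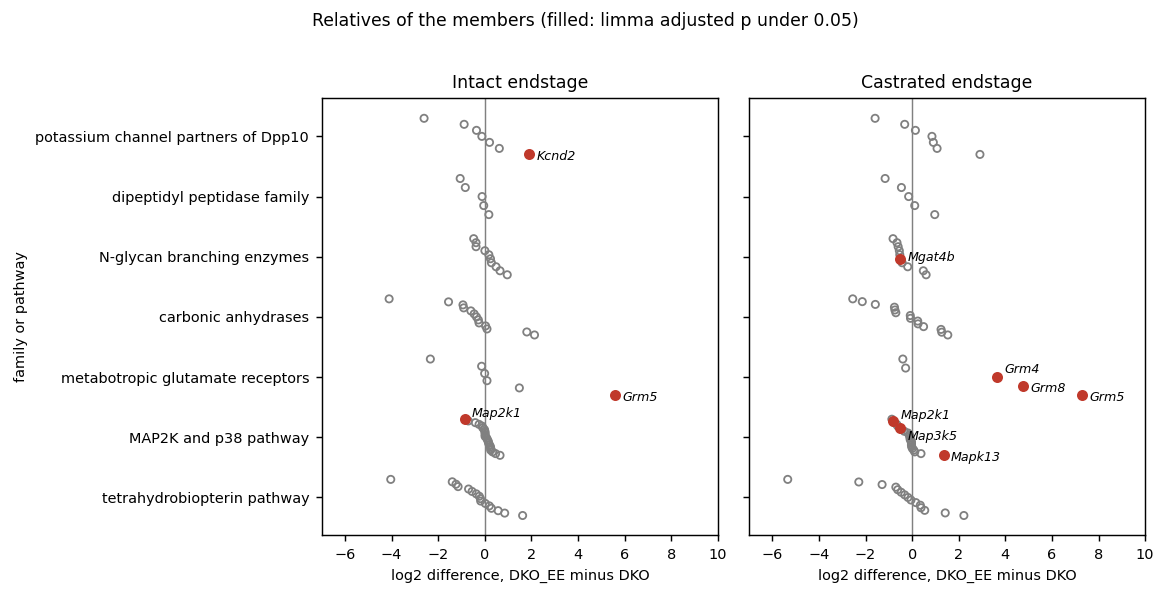
Difference in mean log2 level, DKO_EE minus DKO, of the members' relatives by family at intact (left) and castrated (right) endstage, 1 circle per gene; filled circles passed limma at an adjusted p under 0.05. Grm5 stands farthest to the right in both panels, at 5.60 and 7.31, on a scale where DKO is at 0 in intact mice.

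In DKO_EP, where the members rose from 12 weeks to endstage, 19 relatives rose and 23 fell of 80 in intact mice, and 21 rose and 28 fell in castrated mice. These are 23.8% and 28.8% of the relatives beside 21.3% and 22.9% of all genes in intact mice, and 26.2% and 35% beside 25.7% and 28.8% in castrated mice, and the counts of single families below stand against the same shares of all genes. Of the 7 potassium channel partners of Dpp10, 5 were higher and 1 was lower in each setting, the higher ones including Kcnd1 (2.72 and 3.22), Kcnip2 (4.98 and 4.76) and Kcnip3 (3.95 and 3.87), while Kcnd3 fell by 3.95 and 4.32. Of the 14 carbonic anhydrases other than Car4, 7 fell in intact and 8 in castrated mice, 0 rose, and the others did not pass. Car2, the abundant cytosolic form, fell by 6.40 in intact mice (SE 1.36, adjusted p = 0.000237) and by 7.76 in castrated mice (SE 1.19, adjusted p = 1.25e-06), and Car14 had no read in any of the 8 endstage DKO_EP animals.

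Of the tetrahydrobiopterin list 6 rose and 4 fell in intact DKO_EP mice and 7 rose and 6 fell in castrated ones. Tph1 rose by 6.47 and 7.52 and Ddc by 7.37 and 6.94, and Qdpr and Pcbd1, which recycle the cofactor, rose by 1.03 to 1.69. Gchfr, the feedback regulator that binds GCH1, fell by 2.36 in intact mice (SE 0.74, adjusted p = 0.00861) and by 3.80 in castrated mice (SE 0.65, adjusted p = 6.78e-06). In the N-glycan list Mgat5b rose by 4.55 and 5.45 and Man2a1 fell by 1.26 and 1.24. Among the receptors Grm8 rose in both settings, by 5.17 and 4.47, and Grm5 had no read in any DKO_EP animal. Of the 22 MAP2K and p38 genes 4 rose and 6 fell in each setting. Between castrated and intact DKO_EP 2 relatives were higher (Tab2, Mgat5) and 2 lower (Mapkapk5, Car3). At 12 weeks and in TKO limma called 0 of 80 relatives.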

How the data were processed

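Bulk RNA-seq of prostate tumour tissue was read from 1 deposited table in which the authors give log2 normalized gene values, and the submitters' processing notes name FastQC, STAR, RSEM, limma and DESeq2 with GRCm38 and mm10, without roles. Per the labels' protocols, libraries were made from total RNA with depletion of ribosomal RNA. Of 56 value columns 54 matched a sample and 2 matched none and were not used. Each value was a whole number of reads times 1 factor per library (100% of values within 0.05 of a whole number), which gave the depths in reads. Pieces of 1 animal were averaged, and log2(normalized count + 1) was tested with limma 3.58.1 in R 4.3.3, with Benjamini-Hochberg adjustment over all genes with spread and a threshold of 0.05. The labels' identifiers were taken as animals, and p-values measure the spread between them. Contrasts at 12 weeks and between DKO_EE and DKO at endstage were fitted with DKO, DKO_EE and DKO_EP of that setting together. DKO_EP animals thus entered the spread behind the DKO_EE contrasts. The TKO contrast used the TKO groups only, and changes in DKO_EP used 1 fit over 11 groups. The members and lists were chosen with earlier results of these data known. Named genes are the members, up to 4 called relatives of each list with the smallest adjusted p in a comparison, and the 3 genes most correlated with each member over group means, while Mgat4a and Map2k3 were named after their values were seen. Gene positions are from GENCODE M21, and no measured gene overlapped a member. Start-site windows are from RefSeq. The fits were checked on simulated data. Alternatives were the offset, a filter on low genes, quantile normalization, array weights, limma-voom, 1 common fit, the first library of each animal, age, and leaving out animals or libraries. Age as a covariate entered only the relatives and the counts of called genes, not the member differences. No SKO sample was analysed here.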

Additional observations from a re-analysis of the deposited data

Results flagged for a closer look

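Among 72 groups of 4 to 10 animals, 1 for each member and group of that size, 7 held an animal far from the others by Dixon's ratio, and chance alone gives about 1 in 20. Dpp10 was at 0.00 in 1 12-week DKO animal, with the next at 2.78, and at 1.25 in castrated DKO animal 2, with the next at 10.65. The latter tumour also had the low neuroendocrine mean of 2.57, and it held the low Tmem171 value of 4.69, with the next at 6.05. Mgat4c reached 2.80 in 1 intact DKO_EE animal (next 1.29) and 1.14 in 1 castrated DKO_EE animal (all others at 0.00), each from at most 2 reads in a library. Gpr165 stood at 3.07 in 1 12-week DKO_EP animal (next 1.83). Gch1 was at 5.99 in 1 intact DKO_EE animal, with the next at 7.39.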

How the results depend on the processing

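Over 696 recomputed values of the tested member comparisons 634 kept their direction and side of the threshold, 43 changed sign, 13 lost and 6 gained a call. The sign changes were in differences that had passed no test. In DKO_EE against DKO at 12 weeks, leaving out animals over 1% Ttn gave Dpp10 -0.60, Mgat4c -0.49 and Map2k6 0.05, limma-voom Mgat4c -0.03, and array weights Map2k6 0.01. In DKO_EP against DKO at 12 weeks, quantile normalization gave Mgat4c 0.18, and array weights Map2k6 0.27 and Gch1 -0.09. In TKO, Gpr165 was -0.30 with an offset of 5 and -0.19 with quantile normalization. In DKO_EP, array weights gave Map2k6 -0.42 from 12 weeks to intact endstage. Between castrated and intact DKO_EP, limma-voom gave Dpp10 -0.02, and the first library of each animal gave Dpp10 -0.36 and Map2k6 -0.08. The cause was not tested.

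Leaving out 1 animal at a time gave these ranges. For DKO_EE against DKO at 12 weeks they were -0.54 to 0.66 (Dpp10), -0.63 to 0.63 (Mgat4c), -1.38 to 0.03 (Gpr165) and -0.19 to 0.12 (Map2k6). For DKO_EP against DKO at 12 weeks they were -0.78 to 0.13 (Mgat4c), -1.17 to 0.20 (Gpr165), -0.37 to 0.22 (Map2k6), -0.19 to 0.53 (Gch1) and -0.28 to 0.79 (Tmem171). For CPI1688 they were -1.11 to 0.09 (Mgat4c), -2.07 to 0.41 (Car4), -1.42 to 1.40 (Gpr165), -0.10 to 1.10 (Map2k6) and -0.87 to 0.94 (Tmem171). In DKO_EP from 12 weeks to intact endstage Map2k6 was -0.15 to 0.99. Between castrated and intact DKO_EP they were -0.21 to 0.31 (Dpp10), -4.85 to -1.60 (Mgat4c), -1.22 to 0.14 (Car4) and -0.23 to 0.91 (Map2k6), and 0 to 1 members were called.

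Without the lowest 25% of genes 3 members were called in DKO_EP in each setting, since Mgat4c, Gpr165, Grm7 and Tmem171 were then not tested. Between castrated and intact DKO_EP 1 member was called with an offset of 5 and 2 with array weights, and 9 relatives with array weights. Between DKO_EE and DKO at intact endstage 8 relatives were called with array weights, 0 without libraries over 10% Lars2, 1 with age as a covariate and 0 to 3 without 1 animal, and in castrated mice 11 with array weights and 4 to 8 without 1 animal. With all 11 groups in 1 fit 1 relative was called in DKO_EE at 12 weeks and 1 in TKO. The count over all genes was 84 in that fit for DKO_EE at 12 weeks, 4 for DKO_EP and 3 for TKO, against 0. Without animals over 1% Ttn these were 10 and 6 at 12 weeks, and without 1 animal 0 to 5. For intact DKO_EE it was 277, and 81 with age, 1308 with array weights, 116 with the first library, 94 without Lars2 libraries and 64 to 590 without 1 animal. In castrated mice it was 1278, and 454 with age, 2407 with array weights and 780 to 1796 without 1 animal. Between castrated and intact DKO_EP 1656 became 3577 with array weights.

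Of 224 recomputed values of the 16 described endstage differences 220 moved by less than the spread between animals. Their alternatives were the offset, quantile normalization, group medians, the first library of each animal, and leaving out animals or libraries. Age as a covariate, array weights, limma-voom, the common fit and the filter on low genes were not among them. The member differences at endstage were therefore not adjusted for age. An offset of 5 gave Mgat4c -4.30 and Gpr165 -2.77 in intact and Mgat4c -3.45 and Grm7 -3.13 in castrated mice, because it shrinks low counts. Alternatives chosen after seeing the data left out the animals of low neuroendocrine level: DKO_EP minus DKO in castrated mice became -0.61 for Dpp10 and -0.66 for Car4, and the within-group correlation with the neuroendocrine mean became -0.01 for Map2k6 and -0.08 for Tmem171. Levels at 0 rest on few reads, and folds of such genes depend on the offset. No paired analysis was possible because the labels carry no replicate numbers shared between groups. Leaving out Lars2 libraries was not run for intact DKO_EP, where it leaves no library.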
